A study of Mus musculus with 12 samples.

Results

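Small nucleolar RNA host genes are transcripts whose introns carry small nucleolar RNAs (snoRNAs), and 8 noncoding genes of this kind were followed here in starved mouse embryonic fibroblasts (MEFs): Gas5, Snhg1, Snhg3, Snhg5, Snhg6, Snhg8, Snhg12 and Zfas1. They were found by symbol in the table of read counts per gene, and 7 of the 8 were present among its 24062 rows. Zfas1 was absent under that name. The row 1500012F01Rik, which RefSeq lists as an older symbol of Zfas1, is reported beside the 7 genes and is not counted with them.

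A snoRNA host transcript is spliced, the snoRNA is trimmed out of the released intron, and the joined exons leave as a separate RNA. snoRNAs of the box C/D class guide methylation of ribosomal RNA and those of the box H/ACA class guide pseudouridylation. The joined exons of these noncoding hosts hold only short reading frames, and they are known to be degraded by nonsense-mediated decay (NMD) when ribosomes translate them, so such hosts are studied as RNAs whose level follows the translation state of a cell.

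The libraries came from MEFs expressing either an shRNA against Renilla luciferase (shRenilla, the control) or the shRNA shBruce#1 against Birc6, the gene for the ubiquitin ligase BRUCE. Each line was kept in full medium (FM) or starved for 2 h in medium with neither serum nor amino acids (Starv), with 3 libraries in each of the 4 conditions. A single line stood for each shRNA, so effects of the knockdown cannot be told apart from other differences between the lines, and nothing states that the replicates were separate cultures, so p-values measure the spread between these libraries. In bulk RNA, a change in RNA per cell and a change in the number of cells contributing it cannot be told apart.

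Total counts ranged from 7717265 in shBruce Starv replicate 1 to 18510540, with the other 11 libraries at or above 13200393. Birc6 had 2787 to 5061 normalized counts in the shRenilla libraries and 703 to 1390 in the shBruce libraries, where it was 3.37-fold lower in FM (adjusted p = 0.0627) and 3.95-fold lower in Starv (adjusted p = 0.0186). The fibroblast genes Col1a1, Col1a2, Fn1 and Vim were at 13983 normalized counts or more in every library. Pdgfrb had 778 to 1356 and Col3a1 103 to 729, while Thy1 and Fap did not exceed 6.06. The epithelial genes Epcam and Cdh1 did not exceed 4.90, Krt8 reached 10.1 and Krt18 reached 32.3. Of the blood and endothelial genes, Cd68 had 58.5 to 132 and Kdr 1.98 to 51.9, and Ptprc, Hbb-bs, Pecam1 and Cdh5 did not exceed 18.2. Normalized counts are read counts scaled for the TMM-adjusted depth of each library.

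The 7 genes and the Zfas1 row lie on 6 chromosomes, and 30 annotated snoRNAs lie inside them. Gas5 (chromosome 1, 161034422 to 161038539, plus strand, GRCm38) carries 9, Snhg1 (chromosome 19, 8723475 to 8726443, plus strand) carries 8, and Snhg12 (chromosome 4, 132308623 to 132311024, plus strand) carries 4. Zfas1 (chromosome 2, 167062934 to 167065862, plus strand) carries 3, Snhg3 (chromosome 4, 132348014 to 132353686, minus strand) and Snhg5 (chromosome 9, 88521050 to 88522929, minus strand) carry 2 each, and Snhg6 (chromosome 1, 9941959 to 9944118, minus strand) and Snhg8 (chromosome 3, 123507552 to 123508404, minus strand) carry 1 each. Their annotated transcripts are short, with medians from 488 nt for Snhg8 to 1011 nt for Snhg12. Some reads of Snhg3 are uncertain, because 86.3% of its 986 exonic bases also belong to other annotated genes. Most of these are 705 bases of Gm17300 on the opposite strand, which has no row under that symbol, nor has Snora73a with 159 bases. Rcc1, which has a row, shares 135 bases on the same strand.

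The stretches around the annotated starts are shown to describe the genes. Whether either motif marked in them goes with the change of a host under starvation was not tested. Each runs from 60 bases before the RefSeq start to 20 bases from it, 5′ to 3′ on the gene's strand. Capitals mark TATA where it begins 15 to 45 bases before the start, and a run of C followed by at least 4 pyrimidines where it begins within 20 bases of the start; the latter resembles the 5′ terminal pyrimidine tract of translation-regulated transcripts. Both motifs were chosen after the sequences had been seen, and only the strand of the gene was searched (TATA reads the same on the other strand).
Gas5, chr1:161035106-161035185, plus strand: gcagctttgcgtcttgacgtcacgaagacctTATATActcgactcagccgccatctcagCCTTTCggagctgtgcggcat
Snhg1, chr19:8723427-8723506, plus strand: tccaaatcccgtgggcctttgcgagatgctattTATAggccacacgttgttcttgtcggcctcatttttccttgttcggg
Snhg5, chr9:88522878-88522957, minus strand: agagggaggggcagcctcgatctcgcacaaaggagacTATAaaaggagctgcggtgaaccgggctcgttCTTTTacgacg
Snhg8, chr3:123508317-123508396, minus strand: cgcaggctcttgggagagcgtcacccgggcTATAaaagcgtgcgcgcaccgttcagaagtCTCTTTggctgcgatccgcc
Snhg12, chr4:132308618-132308697, plus strand: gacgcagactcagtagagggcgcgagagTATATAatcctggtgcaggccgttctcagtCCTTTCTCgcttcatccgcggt
Snhg3, chr4:132353667-132353746, minus strand: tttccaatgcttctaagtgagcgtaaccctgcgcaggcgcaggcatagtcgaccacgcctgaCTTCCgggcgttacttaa
Zfas1, chr2:167062874-167062953, plus strand: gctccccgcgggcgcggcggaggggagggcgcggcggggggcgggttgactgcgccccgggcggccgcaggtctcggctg

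Of the 7 genes with a promoter sequence, 5 held TATA in that window, at 32 bases before the start in Snhg12, 30 in Snhg8, 29 in Gas5, 27 in Snhg1 and 23 in Snhg5. The same window held TATA in 7.22% of all 32851 RefSeq promoters and in 8.96% of 67 ribosomal protein promoters. Snhg3 and Zfas1 did not hold it there, nor did the stretch at the other annotated Gas5 start. The pyrimidine run was present in 5 of the 7 genes, namely Gas5, Snhg3, Snhg5, Snhg8 and Snhg12, against 48.2% of all promoters and 73.1% of those of ribosomal protein genes. No stretch is shown for Snhg6. A match of letters is a description of the sequence and not a binding site.

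In full-medium control cells Gas5 was the most abundant of the hosts. On the scale of normalized counts per kilobase of median transcript length it stood at 8875 ± 470 (SD, n = 3) in shRenilla FM, followed by Snhg1 at 4937 ± 244. The Zfas1 row (1432 ± 103), Snhg8 (1421 ± 181) and Snhg5 (1370 ± 112) did not differ beyond their spread. Below them came Snhg6 at 1182 ± 28.1, Snhg3 at 1016 ± 54.0 and, lowest, Snhg12 at 484 ± 40.0. Gas5 was again highest in the other 3 conditions, and Snhg1 was again next, although in shRenilla Starv the levels of Gas5 (8116 ± 977) and Snhg1 (7625 ± 1266) lay within their spread. Snhg12 was lowest in FM in both lines. In Starv it lay within the spread of Snhg3, at 782 ± 157 against 793 ± 148 in shRenilla and at 1277 ± 97.8 against 1030 ± 233 in shBruce. These levels and their order rest on the length used. All exonic bases of a gene are more than its median transcript length, 3760 against 502 for Gas5 and 2929 against 738 for Zfas1. Levels per exonic base were not computed.

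The 7 genes together stood at 681 to 863 CPM in the 6 FM libraries and at 801 to 1311 CPM in the 6 Starv libraries. Gas5 made up 40.6% to 42.3% of the counts of the 7 genes in FM, 30.8% to 32.3% in shRenilla Starv and 33.3% to 39.7% in shBruce Starv. Its share was below every FM library in all 6 starved libraries.

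**Figure D1:**
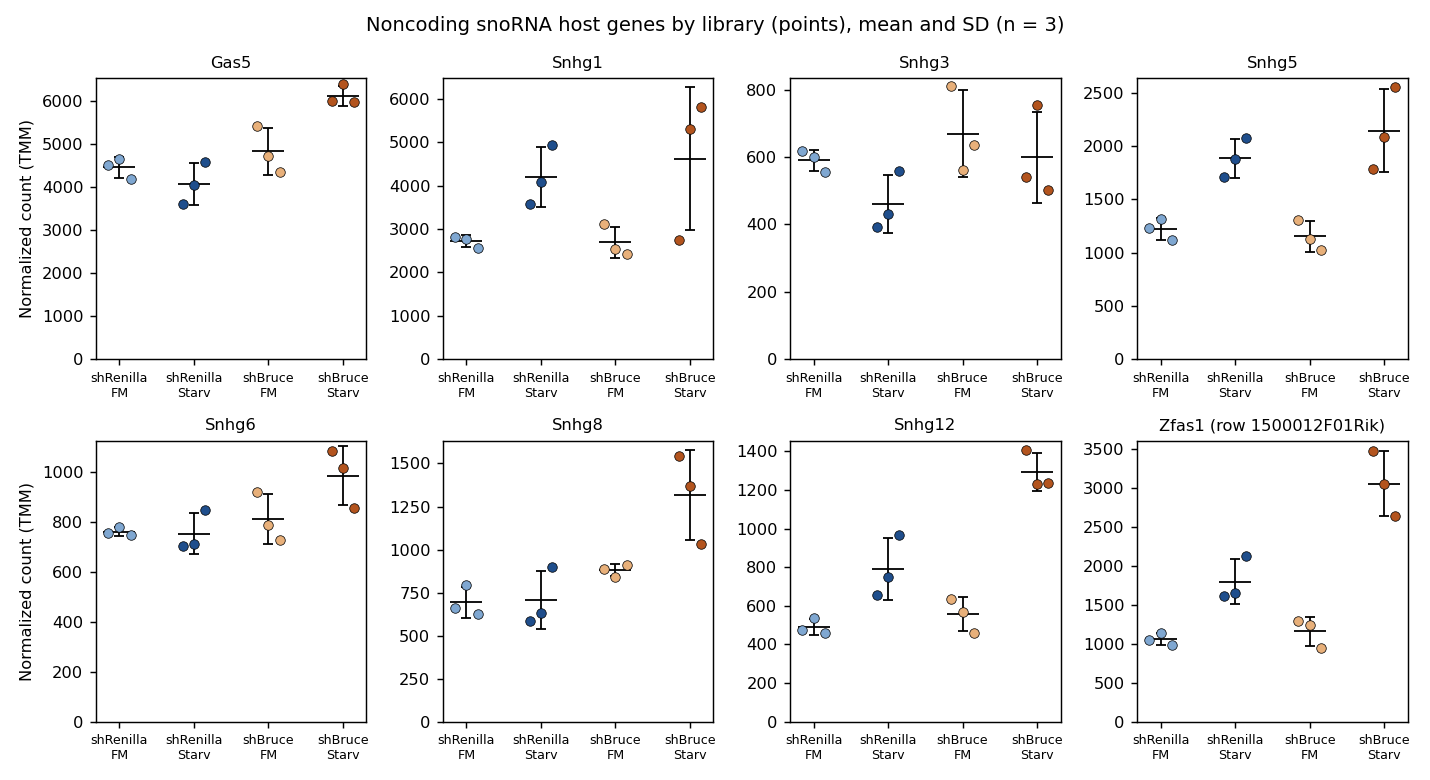
Normalized counts (vertical axes, from 0) of the 7 host genes and the Zfas1 row in each of the 12 libraries, coloured by condition, with the mean and SD of 3 libraries. Snhg5, Snhg12 and the Zfas1 row are higher in every starved library than in the FM libraries of the same line, while Snhg3 overlaps between media in both lines and shBruce Starv replicate 1 lies apart in Snhg1.

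Starvation of the control line raised some hosts and left others near their FM level. Snhg12 rose 1.62-fold and Snhg5 rose 1.54-fold, the Zfas1 row rose 1.70-fold, and none of the 7 fell past the test. Thus 2 of 7 hosts were called higher and 0 lower at an adjusted p under 0.05 (edgeR's quasi-likelihood test), where 17.0% of all 12154 genes tested were called, 9.69% higher and 7.27% lower. All 7 hosts passed the filter on low counts. The median log2 fold change of the 7 was 0.02, beside -0.01 over all genes.

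Snhg12, which hosts Snora16a, Snora44, Snora61 and Snord99, had 474, 535 and 458 normalized counts in shRenilla FM and 656, 751 and 965 in shRenilla Starv. Every starved library was higher, and the fitted log2 fold change was 0.69 with a standard error (SE) of 0.16 (adjusted p = 0.0099). Snhg5, host of the Snord50 pair, had 1230, 1319 and 1119 in FM and 1707, 1879 and 2076 in Starv, again without overlap (log2 fold change 0.63, SE 0.15, adjusted p = 0.0111). The exact permutation test on log2 of the normalized counts plus 1 gave p = 0.1 for each. That is the smallest p that 3 against 3 libraries allow.

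The Zfas1 row, from the antisense partner of the Znfx1 gene, had 1049, 1136 and 985 normalized counts in shRenilla FM. It had 1611, 1649 and 2127 in Starv, so that the lowest starved library was above the highest in FM (log2 fold change 0.76, SE 0.16, adjusted p = 0.0047). Snhg1, also known as UHG and the host of Snord22, had 2809, 2776 and 2562 in FM and 3564, 4076 and 4942 in Starv. The groups did not overlap, but the log2 fold change of 0.63 (SE 0.23) did not pass (adjusted p = 0.0748). With Snhg1, 3 of the 7 hosts were higher in every starved library, as were 25.9% of all genes.

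Gas5, known for accumulating in cells that stop growing, had 4514, 4657 and 4196 normalized counts in shRenilla FM and 3597, 4048 and 4577 in Starv. The groups overlapped, with a log2 fold change of -0.13 (95% interval -0.39 to 0.13). Snhg6, host of Snord87, and Snhg8, host of Snora24, had log2 fold changes of -0.02 (-0.30 to 0.27) and 0.02 (-0.37 to 0.41). For Snhg3, the host of the Snora73 pair, the value was -0.36 (-0.76 to 0.04), with 556 to 616 in FM and 393 to 557 in Starv. Without shRenilla FM replicate 3 neither Snhg5 (adjusted p = 0.0617) nor Snhg12 (adjusted p = 0.0521) passed the test, while the Zfas1 row did (adjusted p = 0.0298).

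In the shBruce line starvation raised 4 of the 7 hosts and lowered 0, where 23.0% of all genes were called, 12.4% higher and 10.6% lower. Snhg12 rose 2.32-fold, Snhg5 1.86-fold, Snhg1 1.72-fold and Snhg8 1.49-fold, and the Zfas1 row rose 2.63-fold. The median log2 fold change of the 7 was 0.58, beside 0.02 over all genes. Gas5, Snhg5, Snhg8 and Snhg12, 4 of the 7, were higher in every starved library, as were 16.2% of all genes.

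Snhg12 had 637, 569 and 461 normalized counts in shBruce FM and 1405, 1231 and 1236 in shBruce Starv. All starved libraries were far above those in FM (log2 fold change 1.21, SE 0.16, adjusted p = 0.000232). Snhg5 went from 1308, 1124 and 1021 to 1784, 2090 and 2559 (0.90, SE 0.15, adjusted p = 0.00101). The Zfas1 row had 1291, 1239 and 950 in FM and 3474, 3052 and 2637 in Starv (1.40, SE 0.16, adjusted p = 6.69e-05). Snhg12, Snhg5 and the Zfas1 row stayed past the level under each of the 22 processing alternatives tried.

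Snhg8 had 886, 842 and 910 normalized counts in shBruce FM and 1546, 1371 and 1033 in Starv, without overlap (log2 fold change 0.58, SE 0.18, adjusted p = 0.0348). Snhg1 had 3106, 2542 and 2416 in FM. In Starv it had 2735 in replicate 1, within the FM range, and 5302 and 5822 in the others (0.78, SE 0.23, adjusted p = 0.0249). Without replicate 1, the shallowest library, its log2 fold change was 1.04 (adjusted p = 0.000327), and Snhg8 no longer passed (0.44, adjusted p = 0.101).

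Gas5 had 5415, 4713 and 4350 normalized counts in shBruce FM and 5989, 6383 and 5984 in Starv. Every starved library was higher, but the log2 fold change of 0.34 (SE 0.12) missed the level (adjusted p = 0.0604). Snhg6 (0.28, 95% interval -0.01 to 0.56) and Snhg3 (-0.16, -0.56 to 0.25) overlapped between media. Across alternatives the number of hosts called in this line was 2 without shBruce FM replicate 2, without shBruce FM replicate 3, without shBruce Starv replicate 2 and in a fit of only the groups compared.

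**Figure D2:**
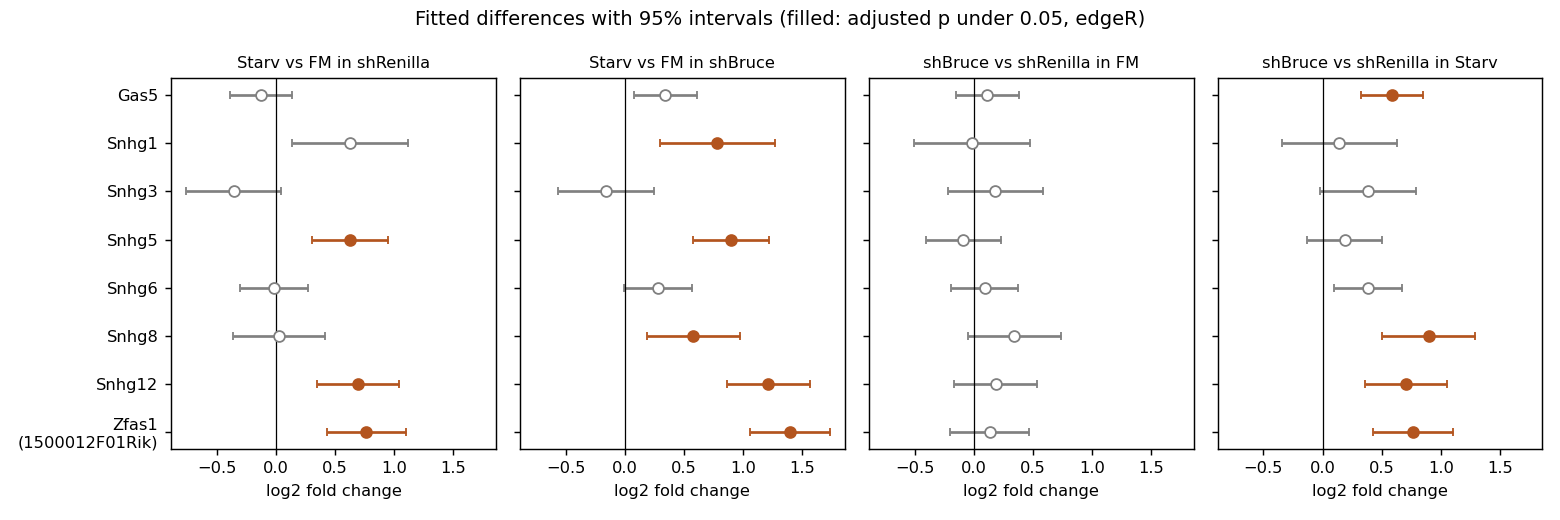
Fitted log2 fold changes (horizontal axes) with 95% intervals of the 7 hosts and the Zfas1 row in the 4 comparisons, filled where the adjusted p was under 0.05. Snhg5 and Snhg12 lie to the right of 0 under starvation in both lines, no host is filled in the comparison of lines in FM, and in Starv Gas5, Snhg8, Snhg12 and the Zfas1 row are filled.

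In full medium the lines did not differ detectably in any host. None of the 7 was called, nor any of the genes tested (0.00% of 12154 in edgeR, with 14.4% at an unadjusted p under 0.05, and 76 genes called by DESeq2). The log2 fold changes of shBruce over shRenilla ran from -0.09 for Snhg5 to 0.34 for Snhg8, with 0 of the 7 at an unadjusted p under 0.05. Snhg8 was the host whose libraries did not overlap, at 626 to 793 normalized counts in shRenilla and 842 to 910 in shBruce, as in 16.4% of all genes (95% interval -0.05 to 0.73).

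After starvation all 7 hosts were fitted higher in shBruce than in shRenilla MEFs, and 3 passed the test. The log2 fold change was 0.90 (SE 0.18) for Snhg8, 0.71 (SE 0.16) for Snhg12 and 0.59 (SE 0.12) for Gas5, each with an adjusted p of 0.0225, and it was 0.77 (SE 0.16) for the Zfas1 row at the same adjusted p. Over all genes 23.9% were called, 12.8% higher and 11.2% lower. The rise was not particular to the 7 hosts, whose median was 0.38. Of 76 ribosomal protein mRNAs, 50 were called higher and 0 lower (median 0.80). Of 34 protein-coding snoRNA hosts, 17 were higher and 1 lower (median 0.48), and of 7 other noncoding hosts 3 were higher and 0 lower (median 0.53). Of 24 NMD factors, 5 were called higher and 4 lower, with log2 fold changes from -1.44 to 1.11 (median 0.01). Of 8 mRNAs known as NMD substrates, 0 were called higher and 0 lower (median -0.04). The normalized counts listed above show Gas5 at 3597 to 4577 in the shRenilla Starv libraries and at 5984 to 6383 in the shBruce Starv libraries. Snhg8 stood at 586 to 898 against 1033 to 1546, and Snhg12 at 656 to 965 against 1231 to 1405. Snhg6 did not overlap either, at 703 to 847 against 855 to 1084 (log2 fold change 0.38, SE 0.13, adjusted p = 0.0513), so that 4 of 7 hosts were higher in every shBruce library, as were 16.4% of all genes.

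Differences between the lines ran with transcript length, and the hosts are short. Of all genes tested, the lowest length quartile, up to 1715 nt, had a median log2 fold change of 0.39 between the lines in Starv and the highest quartile -0.34. In FM these medians were 0.19 and -0.19. With each library's trends against length and GC content removed, Snhg8 alone of the 7 passed in Starv (log2 fold change 0.46, adjusted p = 0.0420), Snhg12 had 0.41, Gas5 0.23 and the Zfas1 row 0.11, and Snhg1 (-0.08) and Snhg5 (-0.01) were below 0. No host was called once shRenilla Starv replicate 1 or 2 or shBruce Starv replicate 2 had been left out, or in a fit of only the Starv groups (0 of 7 in each).

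Under starvation the length quartiles differed less, with medians of -0.13 for the lowest and 0.10 for the highest in shRenilla and 0.12 and -0.05 in shBruce. With the trends removed, Snhg5 and Snhg12 had log2 fold changes of 0.67 and 0.75 in shRenilla and 0.80 and 1.11 in shBruce, and each passed the test. Snhg1 then passed in both lines (0.74 and 0.73, adjusted p = 0.0494 and 0.0438), and Gas5 passed in shBruce (0.32, adjusted p = 0.0438).

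Whether starvation acted differently in the 2 lines was tested with the interaction of line and medium. The fitted starvation change was larger in shBruce for 7 of 7 hosts, by 0.16 for Snhg1 to 0.56 for Snhg8 on the log2 scale, and none passed (adjusted p of 0.806 or more, with 0.00% of all genes called, and 0 with DESeq2 and limma-voom). At an unadjusted p under 0.05 there were 3 hosts, Gas5 (0.47, 95% interval 0.10 to 0.85), Snhg12 (0.52, 0.03 to 1.01) and Snhg8 (0.56, 0.00 to 1.11), where 3.90% of all genes were under that level. The starvation change is therefore not shown to differ between the lines for any host. The interaction also ran with transcript length, with a median of 0.20 in the lowest length quartile and -0.16 in the highest. With the trends removed, the hosts ran from -0.01 for Snhg1 and Snhg3 to 0.36 for Snhg12, with Gas5 at 0.25 and Snhg8 at 0.29. As reported, 69 of 76 ribosomal protein mRNAs and 4 of 8 mRNAs known as NMD substrates were above 0.

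**Figure D3:**
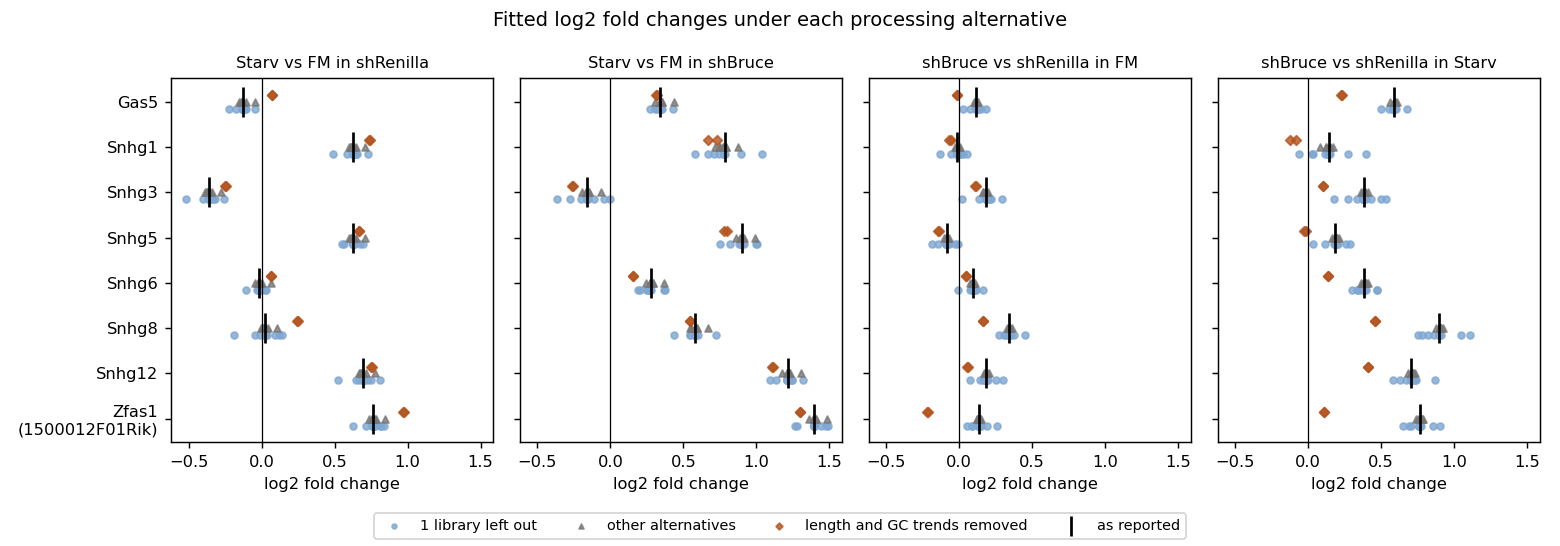
Log2 fold changes (horizontal axes) of the 7 hosts and the Zfas1 row as reported (black bars), with a library left out (blue circles), with length and GC trends removed (orange diamonds) and under the other alternatives (grey triangles). The orange diamonds of Snhg5 and Snhg12 lie near the reported values under starvation, while in the comparison of lines in Starv those of all 7 hosts and the Zfas1 row lie to the left of the reported values, and those of Snhg1 and Snhg5 are below 0.

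The count table also had rows for 9 of the 30 snoRNAs inside the hosts and Zfas1, so host and snoRNA positions could be set side by side. Of these, 4 whose counts fell under starvation are shown in full, from GENCODE M21 on GRCm38. They are Snord47 from Gas5, Snord22 from Snhg1 and Snord12 from Zfas1, all of the box C/D class, and Snora61 from Snhg12, of the box H/ACA class. Capitals mark TGATGA near the 5′ end and CTGA near the 3′ end (the C and D boxes, where found in that form) or ACA near the 3′ end of the H/ACA RNA.
Snord47, chr1:161038082-161038158, plus strand: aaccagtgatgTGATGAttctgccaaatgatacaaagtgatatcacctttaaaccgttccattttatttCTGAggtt
Snord22, chr19:8725866-8725991, plus strand: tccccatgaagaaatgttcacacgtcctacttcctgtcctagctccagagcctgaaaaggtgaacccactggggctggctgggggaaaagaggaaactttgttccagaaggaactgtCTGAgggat
Snord12, chr2:167065276-167065365, plus strand: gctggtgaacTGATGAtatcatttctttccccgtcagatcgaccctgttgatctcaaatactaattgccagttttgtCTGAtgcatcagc
Snora61, chr4:132310240-132310369, plus strand: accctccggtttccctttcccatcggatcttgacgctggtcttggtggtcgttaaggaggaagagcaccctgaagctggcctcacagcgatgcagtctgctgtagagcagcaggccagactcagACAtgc

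Counts at the snoRNA rows fell under starvation while their hosts rose or stayed near the FM level. Of the 8 rows tested, 6 were called lower and 0 higher in shRenilla, and 5 lower and 0 higher in shBruce, where 7.27% and 10.6% of all genes were called lower. The median log2 fold change was -1.07 in shRenilla and -0.96 in shBruce. The ninth row, Snora24 in Snhg8, had 0 counts in every library. The libraries were made by poly(A) enrichment and mature snoRNAs carry no poly(A) tail, so these counts do not measure the mature snoRNA pools, and reads from host transcripts that keep an intron cannot be told apart from them.

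Snord47, inside Gas5, had raw counts of 108, 76 and 102 in shRenilla FM and 29, 40 and 32 in shRenilla Starv, with no overlap (log2 fold change -1.51, SE 0.28, adjusted p = 0.0028). In shBruce it had 108, 80 and 72 in FM and 7, 37 and 32 in Starv (-1.61, SE 0.30, adjusted p = 0.0019). Gas5 itself passed in neither line as reported, and in shBruce it passed under 3 of the 22 alternatives. Snord12, inside Zfas1, went from 101, 89 and 80 to 34, 32 and 39 in shRenilla (-1.37, SE 0.22, adjusted p = 0.0010) and from 73, 81 and 71 to 12, 43 and 45 in shBruce (95% interval -1.49 to -0.51, adjusted p = 0.0068). The Zfas1 row moved the other way in both lines and passed in both.

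Snhg12 rose in both lines, and of its 4 snoRNA rows Snora16a, Snora44 and Snora61 were called lower in shRenilla and Snora61 and Snord99 in shBruce. Snora61 had raw counts of 74, 63 and 44 in shRenilla FM and 34, 27 and 30 in Starv (log2 fold change -1.01, SE 0.29, adjusted p = 0.0290), and the change in shBruce was -1.17 (SE 0.30, adjusted p = 0.0131). Snord22, inside Snhg1, had 330, 343 and 279 in shRenilla FM and 195, 149 and 180 in Starv. It was lower in every starved library of both lines (-0.89, SE 0.28, adjusted p = 0.0431 in shRenilla, and -0.92, SE 0.28, adjusted p = 0.0318 in shBruce). Snord87, inside Snhg6, had 5 to 28 counts per shRenilla library and passed in neither line.

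The ratio of snoRNA-row counts to host counts does not depend on library size. It was taken from raw counts, so trends with length and GC content were not removed from it. For Snord47 it was 1.89 ± 0.324 (SD, n = 3) per 100 Gas5 counts in shRenilla FM and 0.721 ± 0.116 in Starv, and in shBruce 1.85 ± 0.245 and 0.450 ± 0.195. For Snord22 it was 10.3 ± 1.14 per 100 Snhg1 counts in shRenilla FM and 3.67 ± 0.625 in Starv, and in shBruce 10.1 ± 0.891 and 2.95 ± 0.503. The 4 rows of Snhg12 together had 24.7 ± 1.04 counts per 100 Snhg12 counts in shRenilla FM and 7.52 ± 1.51 in Starv, and in shBruce 21.7 ± 2.89 in FM and 3.59 to 6.41 in the starved libraries.

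For Snord12 the ratio was 7.51 ± 0.309 per 100 counts of the Zfas1 row in shRenilla FM and 1.70 ± 0.0369 in Starv, and in shBruce 6.75 ± 0.708 and 1.26 ± 0.491. Every starved library was below every FM library of its line for Gas5, Snhg1, Snhg12 and Zfas1, with an exact permutation p of 0.1 (two-sided) in each of the 8 comparisons. The starved-to-FM quotient of the mean ratios ran from 0.187 for Zfas1 in shBruce to 0.382 for Gas5 in shRenilla. For Snord87 and Snhg6 the groups were apart in shRenilla (exact p = 0.1) and overlapped in shBruce (exact p = 0.3).

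**Figure D4:**
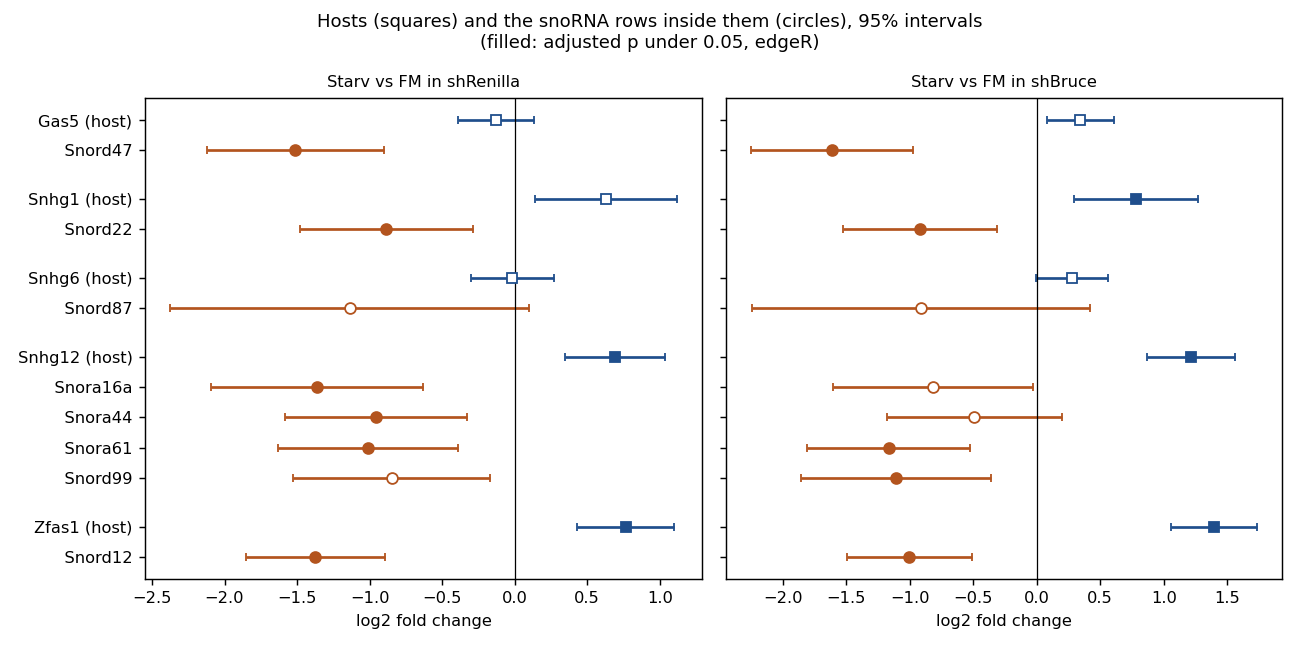
Log2 fold changes of Starv against FM (horizontal axes) with 95% intervals for 4 hosts and the Zfas1 row (squares) and the 8 tested snoRNA rows inside them (circles), in shRenilla and shBruce MEFs, filled where the adjusted p was under 0.05. Every circle lies below 0 and none of the filled squares does.

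**Figure D5:**
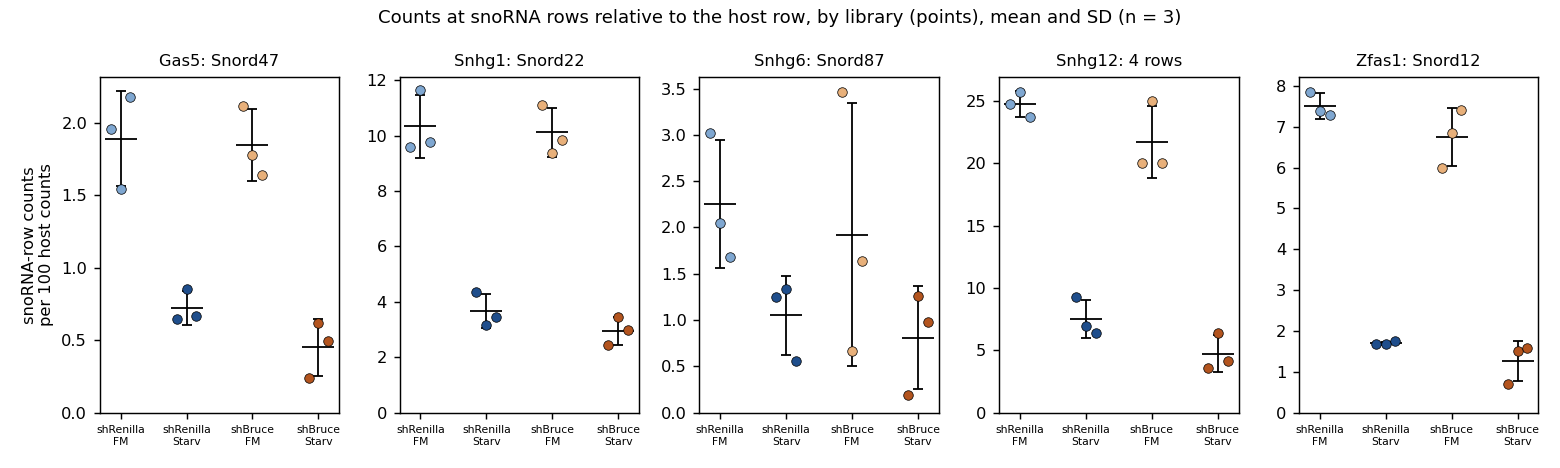
Counts at snoRNA rows per 100 counts of the host row (vertical axes, from 0) in each of the 12 libraries, with the mean and SD of 3 libraries. The starved libraries lie below the FM libraries of the same line for Gas5, Snhg1, Snhg12 and Zfas1, and overlap them for Snhg6 in shBruce.

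The same direction was seen over all snoRNA rows of the table. Of 119 such rows, 54 were tested, the 8 above among them. In shRenilla 19 were called lower and 0 higher (median -1.01), and in shBruce 18 lower and 0 higher (median -0.78). Over all genes 7.27% were called lower in shRenilla and 10.6% in shBruce. Snora3 (-1.90, adjusted p = 0.0022) and Snord57 (-1.81, adjusted p = 0.0224) had the largest falls in shRenilla. With length and GC trends removed, 2 of the 8 rows inside the hosts were called lower in shRenilla (median -0.30) and 1 in shBruce (median -0.43), and over all snoRNA rows 5 were lower and 1 higher in shRenilla (median -0.23) and 5 lower and 2 higher in shBruce (median -0.26). Of the 64 tested genes under 300 nt, 54 were snoRNA rows, so length and the kind of RNA cannot be told apart at the short end.

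Under starvation within each line, other noncoding hosts showed no shared direction. Of 7 tested, Dancr fell in shRenilla (log2 fold change -1.12, SE 0.22, adjusted p = 0.0039) and in shBruce (-0.98, SE 0.22, adjusted p = 0.0064). Snhg7 (0.95, SE 0.26, adjusted p = 0.0177) and 1110038B12Rik (0.46, SE 0.14, adjusted p = 0.0290), both chosen after their values were seen, rose in shBruce and did not pass in shRenilla. The median of the 7 was -0.29 in shRenilla and 0.26 in shBruce. Between the lines in Starv, 7 of these 7 were fitted higher in shBruce (median 0.53). The interaction of line and medium was also above 0 for 7 of them (median 0.36), and 0 passed there.

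Of 34 protein-coding hosts tested, most of them genes of the translation machinery, 5 were called lower and 0 higher in shRenilla (median -0.27), where 7.27% of all genes were called lower and 9.69% higher. The largest falls were those of Ppan (-1.66, SE 0.20, adjusted p = 0.000105), a ribosome biogenesis factor, and Hspa8 (2.01-fold lower, adjusted p = 6.54e-05), a heat shock cognate chaperone. In shBruce 4 were lower and 1 higher (median 0.06), where 10.6% of all genes were called lower and 12.4% higher. Ribosomal protein mRNAs, which begin with a terminal pyrimidine tract, had 4 lower and 0 higher of 76 tested in shRenilla (median -0.21), led by Rpl28 (-1.07, adjusted p = 0.0253) and Rpl3 (-0.82, adjusted p = 0.0118). In shBruce 6 were higher and 4 lower (median 0.23). In each line and direction the share of ribosomal protein mRNAs called was below that of all genes given above.

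The proteins that build snoRNPs, the particles of snoRNA and protein, had 1 of 16 called lower in shRenilla, the assembly factor Znhit3 (-0.48, SE 0.14, adjusted p = 0.0324), and 0 higher. There 0 of the 16 were fitted above 0 (median -0.33, beside -0.01 over all genes). In shBruce 1 was called lower and 0 higher (median -0.08). Between the lines in Starv, 6 were called higher in shBruce and 0 lower (median 0.37), where 12.8% and 11.2% of all genes were. Among 24 NMD factors, 1 was higher and 3 were lower in shRenilla. Pnrc2, an adaptor between UPF1 and decapping, rose (0.75, SE 0.16, adjusted p = 0.0062), and Upf1, the central NMD helicase (-0.73, SE 0.13, adjusted p = 0.0017), and Magohb, of the exon junction complex (-1.07, SE 0.21, adjusted p = 0.0039), fell. In shBruce 3 were higher and 3 lower. Over all genes 9.69% were higher and 7.27% lower in shRenilla and 12.4% and 10.6% in shBruce.

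Of 8 mRNAs known as NMD substrates, 4 were higher and 1 was lower in each line, with medians of 0.55 in shRenilla and 0.62 in shBruce. The shares over all genes were 9.69% higher and 7.27% lower in shRenilla and 12.4% and 10.6% in shBruce. Ddit3 (2.84, SE 0.18) and Gadd45a (2.60, SE 0.13), both stress-induced, rose most in shRenilla, each with an adjusted p under that of any host, and Map3k14 fell (-0.44, SE 0.14, adjusted p = 0.0458). The 4 that rose, Atf3, Atf4, Ddit3 and Gadd45a, belong to the cell's response to amino acid shortage.

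Of the 4 neighbouring genes tested, 1 was called higher and 0 lower under starvation in each line. Over all genes 9.69% were called higher and 7.27% lower in shRenilla, and 12.4% and 10.6% in shBruce. Between the lines in Starv, 1 of the 4 was called lower in shBruce and 0 higher, where 11.2% and 12.8% of all genes were. Slc3a2, the heavy chain of amino acid transporters, starts 106 bases from Snhg1 on the opposite strand, and it rose in shRenilla (log2 fold change 1.25, SE 0.14, adjusted p = 7.6e-05) and shBruce (1.27, SE 0.14, adjusted p = 5.9e-05). Its normalized counts went from 4266, 4675 and 4413 to 9839, 10082 and 11767 in shRenilla. Rcc1, which overlaps Snhg3 on the same strand, had -0.27 and -0.34, Znfx1, which overlaps Zfas1 on the opposite strand, had 0.10 and 0.23, and Zbtb37, opposite Gas5, had 0.59 and -0.10. None of these 3 passed the test under starvation. Mcmdc2, opposite Snhg6, had at most 2 raw counts in any library.

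Among themselves the hosts varied together to different degrees over the 12 libraries, which share 4 conditions and their depths. Pearson's r of log2 CPM was 0.91 for Snhg1 with Snhg5, 0.91 for Snhg6 with Snhg8, 0.90 for Gas5 with Snhg6, 0.89 for Gas5 with Snhg8 and 0.88 for Snhg5 with Snhg12. For Snhg3 the values ran from 0.57 with Gas5 to -0.30 with Snhg5, the lowest of any pair. The genes outside the group whose profiles were most like the mean of the hosts were Plrg1 (r = 0.956), Metap1d (0.924), 1110038B12Rik (0.924), Clhc1 (0.922) and Timmdc1 (0.920), of which 1110038B12Rik is itself a noncoding snoRNA host.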

How the data were processed

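Libraries were made by poly(A) enrichment and sequenced by the authors, who mapped reads to mm10 with STAR 2.4.0d and counted them with HTSeq 0.5.4p3, per the labels and the study's methods. The deposited values are raw read counts per gene symbol for 12 libraries, with 24062 rows. The annotation and the strand setting are not given in the sources used here, so reads of overlapping or antisense genes cannot be told apart. The table had 27 symbols turned into dates, with 0.296% of all counts, which were kept and are not named.

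Counts were fitted in edgeR 4.0.16 (R 4.3.3) with TMM normalization, filterByExpr, condition means fitted jointly and the two-sided quasi-likelihood test, with Benjamini-Hochberg adjustment over the 12154 genes tested and a level of 0.05. Intervals are at 95%. Precision was read from the spread between replicates, since depth varied from 7717265 to 18510540 counts. That spread was estimated for each gene over all conditions jointly. Replicates were least alike in shBruce Starv, where pairs of libraries differed by a chi-square of 46.4 to 92.3 per degree of freedom. Pairs in the other conditions had 2.18 to 27.4, so the joint estimate may understate the spread within shBruce Starv. Gene positions and transcript lengths came from GENCODE M21, and promoters from RefSeq on GRCm38.p6. The members and lists were chosen with earlier results of these data known. Named genes are the members, Birc6, neighbours that overlap a member or start within 2000 bases, up to 2 rising and 2 falling genes per list with the largest change past the level in shRenilla, and the 5 genes most like the members' mean profile. Exceptions are named as such, as are the snoRNA rows inside members. The fit was tested on simulated data. The 22 alternatives were DESeq2's size factors, upper-quartile scaling, DESeq2 1.42.0 with its Wald statistic, voom in limma 3.58.1, no filter, at least 10 counts in every sample, only the groups compared, the replicate block, length and GC trends removed (spline, 4 degrees of freedom) with and without that block, and each of the 12 libraries left out.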

Additional observations from a re-analysis of the deposited data

How the results depend on the processing

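Over the 22 alternatives, 782 of the values of the 7 hosts and the Zfas1 row kept their direction and their side of the level, 39 lost a call, 19 gained one and 32 changed sign. Counts of hosts called and of all genes called stayed within 1.5 times in 177 cases and moved further in 41. In a fit of only the groups compared, hosts called were 4 under starvation in shRenilla (5013 of all genes), 2 in shBruce (956) and 0 between lines in Starv (0), with 597 of all genes called between lines in FM. Between lines in FM, all genes called were 76 with DESeq2's Wald test, 7 without a filter and 2 with trends removed, with or without the block. Between lines in Starv, trend removal left 1 host (665 of all genes), and with the block 0 hosts (2 of all genes). Causes were not tested.

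Leaving out a library gave 0 to 3 hosts called under starvation in shRenilla (1149 to 3212 of all genes), 2 to 4 in shBruce (1855 to 4009), 0 to 0 between lines in FM (0 to 32), 0 to 5 between lines in Starv (0 to 5735) and 0 to 0 for the interaction (0 to 0). In Starv the count of all genes was 0 without shRenilla Starv replicate 1 or 2, 15 without shBruce Starv replicate 2 and 573 without replicate 1. For rows of snoRNAs inside hosts, 2 to 7 were lower in shRenilla and 2 to 6 in shBruce. With only the groups compared, 8 of these 8 rows were lower in shRenilla and 1 in shBruce, and over all snoRNA rows 36 of 48 and 4 of 45 were lower.

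The values that changed sign had not passed the test as reported. Under starvation in shRenilla, Snhg6 had 0.066 with upper-quartile normalization, 0.0040 with only the groups compared and 0.062 with trends removed (0.061 with the block), Snhg8 had -0.0054 without a filter, and Gas5 had 0.072 with trends removed (0.071 with the block). Between lines in FM, Snhg1 had 0.0020 with upper-quartile normalization, and with trends removed Gas5 had -0.018 (-0.016 with the block) and the Zfas1 row 1500012F01Rik -0.22 (-0.22). Between lines in Starv, with trends removed, Snhg1 had -0.082 (-0.12 with the block) and Snhg5 -0.014 (-0.028). The interaction with trends removed was -0.013 (-0.068 with the block) for Snhg1 and -0.011 (-0.013) for Snhg3. With a library left out, the ranges that crossed 0 were -0.11 to 0.032 for Snhg6 and -0.19 to 0.14 for Snhg8 under starvation in shRenilla, -0.13 to 0.056 for Snhg1 and -0.0082 to 0.16 for Snhg6 between lines in FM, -0.061 to 0.39 for Snhg1 in Starv, and -0.046 to 0.40 for Snhg1 and -0.0051 to 0.36 for Snhg3 in the interaction.

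Deviations of same-numbered replicates from their condition means had r from -0.46 to 0.16. With 3 libraries per condition, these values cannot show whether the numbers pair the libraries, and the fit did not pair them. With the replicate block, all genes called between lines in Starv were 1932 against 2907.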
